A study of Mus musculus with 9 samples.

Results

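The genes described here encode the secreted and membrane-anchored proteases that cut the extracellular matrix, together with their inhibitors. They were chosen by symbol among the protein-coding mouse genes: the matrix metalloproteinases (Mmp genes), the ADAMTS proteases (Adamts genes), the ADAMTS-like proteins (Adamtsl genes) and the tissue inhibitors of metalloproteinases (Timp genes). The rule gave 50 of the 54232 genes counted, namely 22 Mmp, 19 Adamts, 5 Adamtsl and 4 Timp genes. Of these, 43 had at least 1 read in 1 of the 9 libraries, 41 had at least 10 reads over all libraries, and 35 had enough reads to be tested. Mmp1a has a fitting symbol but is not protein-coding in GENCODE M21, so it was left out.

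RNA was sequenced from wildtype CD1 mouse cortical neurons, CD1 being an outbred stock, in 3 groups of 3 repeats. The controls carry PDL in their library names, and the labels do not spell it out. The PA group received a peptide amphiphile, whose fat-like tail lets the peptides assemble into nanofibres. Its library names give IKVAV, which is a laminin sequence that cells bind. The PA + PS2 group carries IKVAV plus PEDOT-S-OH in its library names, PEDOT being a family of conducting polymers. The groups follow the sample titles, because the treatment label of the controls also names a peptide amphiphile. The labels give neither times in culture nor amounts of material, and nothing says that the 3 repeats came from separate cultures. The p-values therefore rest on the spread between these libraries alone, and that spread may be technical. Total counts ran from 20746851 to 27237398 per library, so that 1 CPM, a read count scaled to the size of the library, stood for 20.8 to 26.6 reads.

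Metalloproteinases of these families hold a zinc ion in their active site and are made as inactive precursors. Most matrix metalloproteinases are secreted, while the membrane-type members stay on the cell surface and can activate secreted ones. The ADAMTS proteases are secreted and carry thrombospondin repeats; several of them cut aggrecan, versican and brevican, the proteoglycans that form much of the matrix around neurons, and others trim procollagens or cut reelin. ADAMTS-like proteins share the accessory domains of this family but lack the protease domain. TIMP proteins bind to active metalloproteinases and block them. In the brain these genes are known from neurite growth, synaptic plasticity and the response to injury.

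A block of the Mmp family lies together on chromosome 9, between bases 7272514 and 7699585 of GRCm38 (mm10). It holds 9 of the 22 Mmp genes: the collagenases Mmp13, Mmp1b and Mmp8, the stromelysins Mmp3 and Mmp10, the matrilysin Mmp7, the enamel protease Mmp20, Mmp27, and the macrophage elastase Mmp12. In these libraries 7 of the 9 had no read at all, namely Mmp1b, Mmp3, Mmp7, Mmp8, Mmp10, Mmp20 and Mmp27. Mmp13 had 6 reads over the 9 libraries and Mmp12 had 93. In the shallowest library a count of 0 allows a level of up to 0.144 CPM, taken as 3 reads and covering counting error only.

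Promoter windows of 300 bases, from 250 bases before a transcription start to 50 after it, were available from RefSeq (GRCm38.p6) for 35 of the 50 genes. The following 5 are shown because they set silent or nearly silent genes of the chromosome 9 block beside expressed members of the set. Sequences read 5′ to 3′ on the strand of the gene. Capitals mark a match to TGANTCA, the site read by AP-1 transcription factors, or to TATAAA, the TATA box, each searched on both strands. Mmp3 (chr9:7445572-7445871, plus strand) and Mmp13 (chr9:7272264-7272563, plus strand) had next to no reads. Mmp12 (chr9:7344147-7344446, plus strand) had few, while Timp3 (chr10:86300162-86300461, plus strand) and Mmp24 (chr2:155775092-155775391, plus strand) were expressed in every library.
Mmp3: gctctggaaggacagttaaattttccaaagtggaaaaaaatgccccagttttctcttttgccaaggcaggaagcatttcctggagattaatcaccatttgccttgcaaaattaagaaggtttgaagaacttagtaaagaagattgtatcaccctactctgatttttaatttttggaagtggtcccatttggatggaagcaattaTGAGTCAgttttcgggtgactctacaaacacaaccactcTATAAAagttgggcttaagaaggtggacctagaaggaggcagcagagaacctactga
Mmp13: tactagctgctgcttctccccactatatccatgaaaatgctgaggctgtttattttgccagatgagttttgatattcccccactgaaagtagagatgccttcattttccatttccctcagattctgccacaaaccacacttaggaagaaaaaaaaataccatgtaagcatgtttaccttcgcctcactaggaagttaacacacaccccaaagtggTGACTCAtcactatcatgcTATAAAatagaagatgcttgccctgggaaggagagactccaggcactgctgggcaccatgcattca
Mmp12: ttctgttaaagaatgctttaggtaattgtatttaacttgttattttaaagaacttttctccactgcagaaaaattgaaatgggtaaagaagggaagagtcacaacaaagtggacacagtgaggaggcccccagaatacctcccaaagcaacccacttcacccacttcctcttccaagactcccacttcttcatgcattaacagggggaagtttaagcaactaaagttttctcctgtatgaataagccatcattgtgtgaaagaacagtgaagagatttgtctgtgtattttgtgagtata
Timp3: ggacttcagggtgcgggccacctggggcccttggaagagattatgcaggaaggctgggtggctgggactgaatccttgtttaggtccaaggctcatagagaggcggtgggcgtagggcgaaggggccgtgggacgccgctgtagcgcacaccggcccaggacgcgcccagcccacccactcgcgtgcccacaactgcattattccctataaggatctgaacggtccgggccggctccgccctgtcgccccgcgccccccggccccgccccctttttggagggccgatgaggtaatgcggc
Mmp24: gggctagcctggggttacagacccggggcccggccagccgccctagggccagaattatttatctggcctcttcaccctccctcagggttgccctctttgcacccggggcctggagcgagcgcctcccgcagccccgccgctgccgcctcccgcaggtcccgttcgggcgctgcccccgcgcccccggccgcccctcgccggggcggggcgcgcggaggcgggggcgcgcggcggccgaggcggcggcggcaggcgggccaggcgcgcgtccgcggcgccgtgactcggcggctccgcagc

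The Mmp3 window held an AP-1 match whose first base lay at -46 from the start and a TATA match at -7, and the Mmp13 window held them at -35 and -16. The windows of Mmp12, Timp3 and Mmp24 held neither. Over all 32851 windows in the table, 7.81% held the AP-1 letters and 13.6% the TATA letters. Among the 9 windows of the chromosome 9 block, 6 held the AP-1 letters and 7 the TATA letters. The 35 tested members had 21 windows, of which 0 held the AP-1 letters and 2 the TATA letters. Mmp12 belongs to both sets. Tested members without a window included Mmp16, Mmp17, Adamts7, Adamts10, Adamts15 and Mmp2, so the tested side is incomplete. CG dinucleotides differed as well: the Mmp24 window had 44, the Timp3 window 24, those of Mmp3 and Mmp13 had 1 each, and the Mmp12 window had 0. The median was 1 in the chromosome 9 block, 22 in the tested members with a window and 7 over all windows. Mmp25, Mmp28 and Adamtsl5, with too few reads to be tested, had 18, 20 and 29. A match of letters does not show that a factor binds there.

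**Figure D1:**
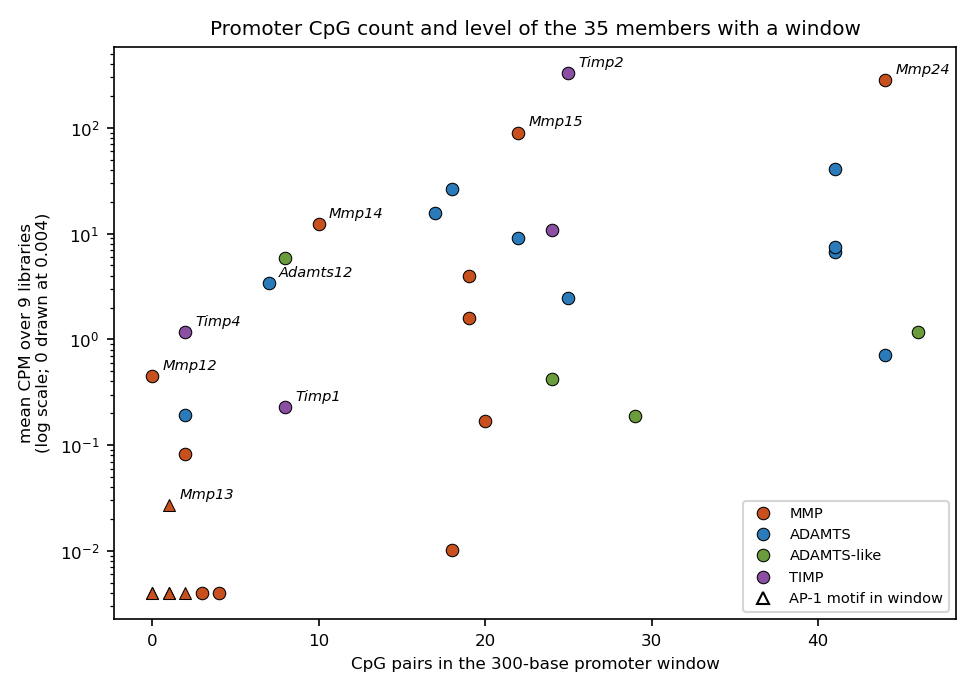
Number of CG dinucleotides in the 300-base promoter window of each member with a window (horizontal axis) against its mean level over 9 libraries in CPM (vertical axis, log scale, with 0 drawn at the bottom); triangles mark an AP-1 match and colours the families. Members of the chromosome 9 block have 0 to 4 CG dinucleotides and lie at the bottom left, and the tested members, with a median of 22, lie mostly to the right.

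Levels were compared between genes as CPM per kilobase of merged exons (RPKM). The inhibitor Timp2, which also takes part in activating Mmp2 at the cell surface, stood highest of the set in controls at 83.0 ± 1.32 RPKM (SD, n = 3). Next came Mmp24 at 59.4 ± 7.24 RPKM, a membrane-type protease known from neurons. Further membrane-anchored proteases followed, Mmp15 at 17.1 ± 0.572, Mmp17 at 10.3 ± 0.446 and Mmp16 at 9.64 ± 1.46 RPKM, and the controls of Mmp17 and Mmp16 overlapped. The highest ADAMTS genes were Adamts3 at 7.36 ± 0.401 RPKM, a procollagen protease that also cuts reelin, Adamts7 at 6.90 ± 0.508 RPKM, a protease of cartilage and vessel matrix, and Adamts1 at 5.62 ± 0.595 RPKM, which cuts versican and aggrecan. Adamts3 and Adamts7 overlapped in controls. Further down stood Adamts10 at 2.76 RPKM, a protease tied to fibrillin fibres, Mmp14 at 2.21 RPKM, the main activator of Mmp2, Timp3 at 1.66 RPKM and the gelatinase Mmp2 itself at 1.33 RPKM.

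The set was thus dominated by a few genes in every library. Mmp24, Mmp15, Mmp17 and Mmp16 made up 93.8% to 96.3% of the summed RPKM of the Mmp genes, and Timp2 made up 96.5% to 99.3% of that of the Timp genes. On the CPM scale, 13 of the 35 tested members had a mean of at least 10 CPM and 5 had a mean under 1 CPM. Summed levels of the Mmp genes ran from 98.2 to 108.8 RPKM in controls, 92.2 to 123.3 in PA and 101.7 to 108.6 in PA + PS2, so the ranges overlapped. The summed Timp level was 83.9 to 86.1 RPKM in controls, 80.5 to 89.4 in PA and 85.0 to 93.9 in PA + PS2, which also overlapped. For the Adamts genes the sums were 32.0 to 33.1 RPKM in controls, 31.4 to 34.2 in PA, and 32.6, 30.9 and 27.2 RPKM in PA + PS2 repeats 1, 2 and 3, the last being the lowest of the 9 libraries.

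**Figure D2:**
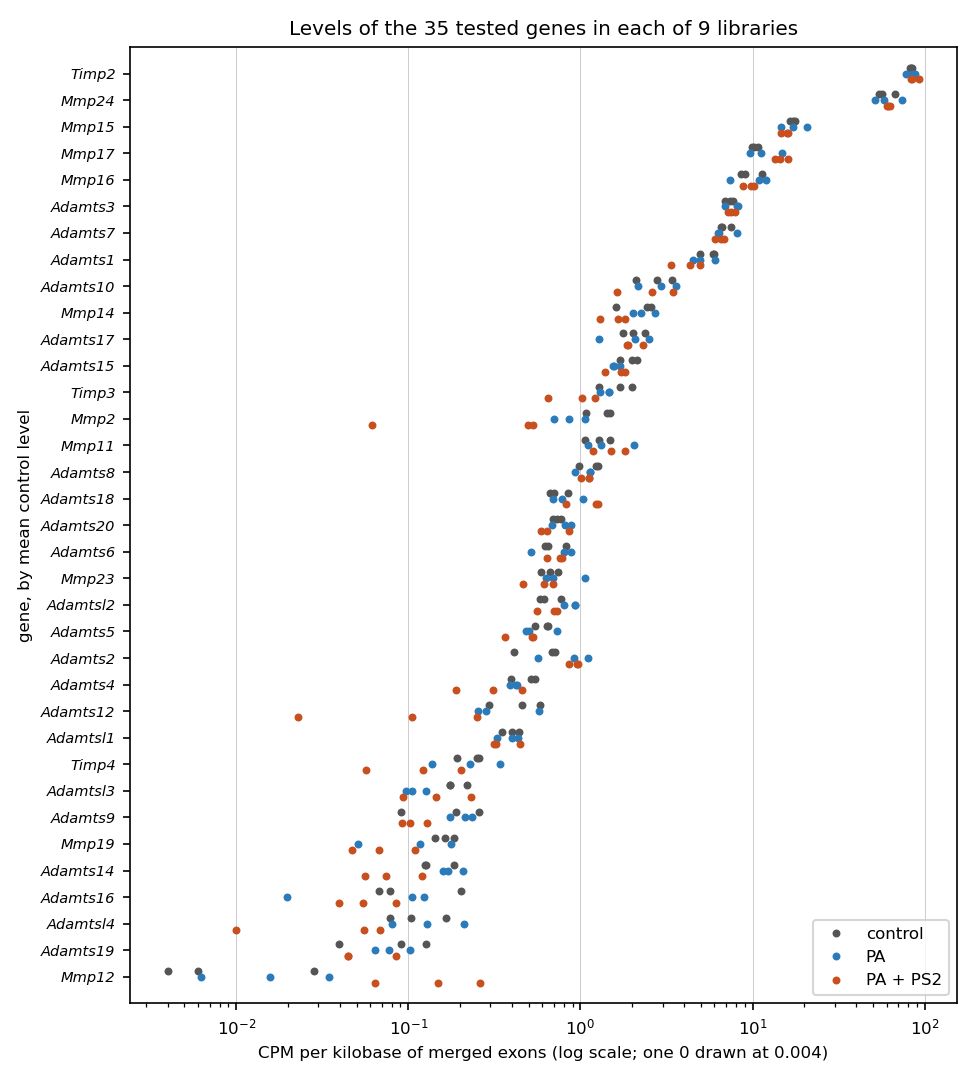
Level of each tested member in RPKM (horizontal axis, log scale), with 1 point per library coloured by group and genes ordered by their mean in controls. Timp2 and Mmp24 lead the order at 83.0 and 59.4 RPKM in controls, and the groups overlap in many genes. A single value of 0, in Mmp12, is drawn at the left edge.

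With PA + PS2 against control, no member passed the test at an adjusted p under 0.05. In edgeR (quasi-likelihood F test, Benjamini-Hochberg adjustment over 15712 genes) 0.0446% of all genes passed (7 genes, all lower in PA + PS2). When the repeat number was added as a block, 1.17% of all genes passed and 2 members were among them: Mmp2 and Adamts12, both lower in PA + PS2. At an unadjusted p under 0.05 stood 4 members higher and 5 lower, against 1.09% and 4.54% of all genes. Mmp12, among those higher here and below, had enough reads for the test only through PA + PS2. Single libraries moved the counts of members, and the shares of all genes moved too. Without control repeat 2 the counts were 2 higher and 3 lower (0.816% and 3.2% of all genes). They were 2 and 6 without PA + PS2 repeat 1 (0.821% and 3.79%). Without PA + PS2 repeat 2 they were 2 and 7 (0.636% and 3.87%), and without PA + PS2 repeat 3 they were 3 and 3 (0.68% and 3.37%). DESeq2 put 9 members under an unadjusted p of 0.05. These were 4 higher and 5 lower, against 0.576% and 2.53% of its 31609 genes. Of these members 2, Mmp2 and Mmp12, passed its adjusted threshold. The groups did not overlap for 3 members that were higher and 9 that were lower in PA + PS2, against 5.38% and 6.54% of all genes. Of those lower, Mmp19 and Adamtsl4 reached the level needed for the test only in control and PA libraries. Part of their difference was therefore fixed by the filter. The median log2 fold change of the 35 tested members was -0.14, with 25 below 0 and 10 above, and that of all genes tested was -0.00073.

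Mmp2 (chromosome 8, 92827291 to 92853420, ENSMUSG00000031740) encodes gelatinase A, which cuts denatured collagen and basement membrane. Its level was 5.01, 4.78 and 3.64 CPM in control repeats 1 to 3, 2.88, 3.56 and 2.37 CPM in PA, and 1.78, 1.66 and 0.208 CPM in PA + PS2. The 3 PA + PS2 libraries lay below all others, and repeat 3 stood far below the rest. With PA + PS2 against control the log2 fold change was -1.88 ± 0.50 (SE, n = 3 per group; adjusted p = 0.215 in edgeR), and it was -2.00 with the repeat block (adjusted p = 0.0371 in edgeR). DESeq2 gave an adjusted p of 0.00735. Without PA + PS2 repeat 3 the log2 fold change was -1.38 (adjusted p = 0.274 in edgeR).

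Mmp14, the membrane-type protease that activates Mmp2, was at 9.57, 15.4 and 14.5 CPM in controls, 16.1, 13.4 and 12 CPM in PA, and 7.74, 10.8 and 9.85 CPM in PA + PS2. Control repeat 1 lay within the range of the PA + PS2 libraries, and the log2 fold change was -0.48 ± 0.20 (adjusted p = 0.78 in edgeR).

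Among the abundant membrane-anchored proteases none passed in edgeR. Mmp17 (chromosome 5, 129584169 to 129611099, ENSMUSG00000029436), held at the surface by a lipid anchor, was at 71.2, 67.7 and 65.4 CPM in controls, 98.1, 64.3 and 74.0 CPM in PA, and 89.2, 95.7 and 105.7 CPM in PA + PS2. Each PA + PS2 library lay above each control, while PA repeat 1 reached the PA + PS2 range. Against control the log2 fold change was 0.51 ± 0.14 (adjusted p = 0.238, and 0.0859 with the repeat block, both in edgeR). Without the 3 libraries of repeat 1 it was 0.60 and passed (adjusted p = 0.0384 in edgeR).

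Mmp24 (chromosome 2, 155775342 to 155818366, ENSMUSG00000027612), known to cut N-cadherin at synapses, was at 316.5, 264.3 and 253.0 CPM in controls, 344.1, 240.5 and 271.3 CPM in PA, and 281.7, 285.9 and 294.8 CPM in PA + PS2. The PA + PS2 libraries fell inside the range of the controls. The log2 fold change against control was 0.05 ± 0.13. In Mmp24, 13.6% of exon bases also belong to BC029722 on the opposite strand, a gene at 9.64 to 13.7 CPM; whether the deposited counts used strand is not given in the sources used here.

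Mmp15, another membrane-type protease, was at 88.9, 95.1 and 92.1 CPM in controls, 111.3, 78.6 and 93.0 CPM in PA, and 79.1, 86.2 and 85.3 CPM in PA + PS2. Its PA + PS2 libraries lay just below the controls, with a log2 fold change of -0.14 ± 0.12. Mmp16, found in the developing brain, was at 73.9, 78.8 and 97.9 CPM in controls, 64.2, 94.9 and 103.4 CPM in PA, and 75.9, 87.8 and 85.1 CPM in PA + PS2. The groups overlapped and the log2 fold change was -0.01 ± 0.17.

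Mmp12 (chromosome 9, 7344381 to 7369499, ENSMUSG00000049723) had the most reads of its chromosome 9 block. It had 5, 1 and 0 reads in controls, 1, 6 and 3 in PA, and 39, 12 and 26 in PA + PS2, or 0.205, 0.0435 and 0 CPM, 0.045, 0.251 and 0.113 CPM, and 1.88, 0.463 and 1.08 CPM. All 3 PA + PS2 libraries lay above the other 6, and the gene had enough reads to be tested only through them, so some difference was fixed by the filter. The fitted log2 fold change against control was 3.63 ± 0.85 (adjusted p = 0.161, and 0.0653 with the repeat block, both in edgeR). DESeq2 gave an adjusted p of 0.0148. Few reads stand behind this value, which ran from 3.10 without PA + PS2 repeat 1 to 5.36 without control repeat 1. Mmp12 shares 2.2% of its exon bases with Mmp1b, on the opposite strand, which had no reads.

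Because Mmp12 is known from macrophages, the markers of microglia and macrophages were read beside it. Their summed level was 9.39 to 13.1 CPM in controls, 8.1 to 12 in PA and 12 to 12.9 in PA + PS2, and of 8 tested markers 4 lay above 0 and 4 below in PA + PS2 against control. Lyz2, the lysozyme of macrophages, was at 1.52, 0.522 and 0.737 CPM in controls and at 3.70, 4.63 and 5.20 CPM in PA + PS2, with a log2 fold change of 2.27 ± 0.39 (adjusted p = 0.0614, and 0.0148 with the repeat block, both in edgeR). Cx3cr1, the fractalkine receptor of microglia, was at -1.96 ± 0.60 (adjusted p = 0.332 in edgeR). P2ry12, a receptor that defines resting microglia, was at 0 in all control and PA + PS2 libraries, and Tmem119 reached at most 0.293 CPM in any library. The part of such cells in the Mmp12 value was not tested.

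The remaining tested Mmp genes were low. Mmp11, a stromelysin-like protease of tissue remodelling, was at 3.57, 2.96 and 4.14 CPM in controls, 5.71, 3.06 and 3.68 CPM in PA, and 5.05, 3.28 and 4.2 CPM in PA + PS2. Mmp23, an atypical membrane-bound member, was at 1.56, 1.74 and 1.38 CPM in controls, 2.47, 1.63 and 1.47 CPM in PA, and 1.44, 1.62 and 1.08 CPM in PA + PS2. In both genes the groups overlapped. Mmp19, a protease of basement membrane, ranged from 0.166 to 0.652 CPM. Its PA + PS2 libraries lay below the controls at a log2 fold change of -1.10 ± 0.54. It reached the level needed for the test only in control and PA libraries, so some difference was fixed by the filter. Mmp19 shares 22.3% of its exon bases with Tmem198b on the opposite strand.

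**Figure D3:**
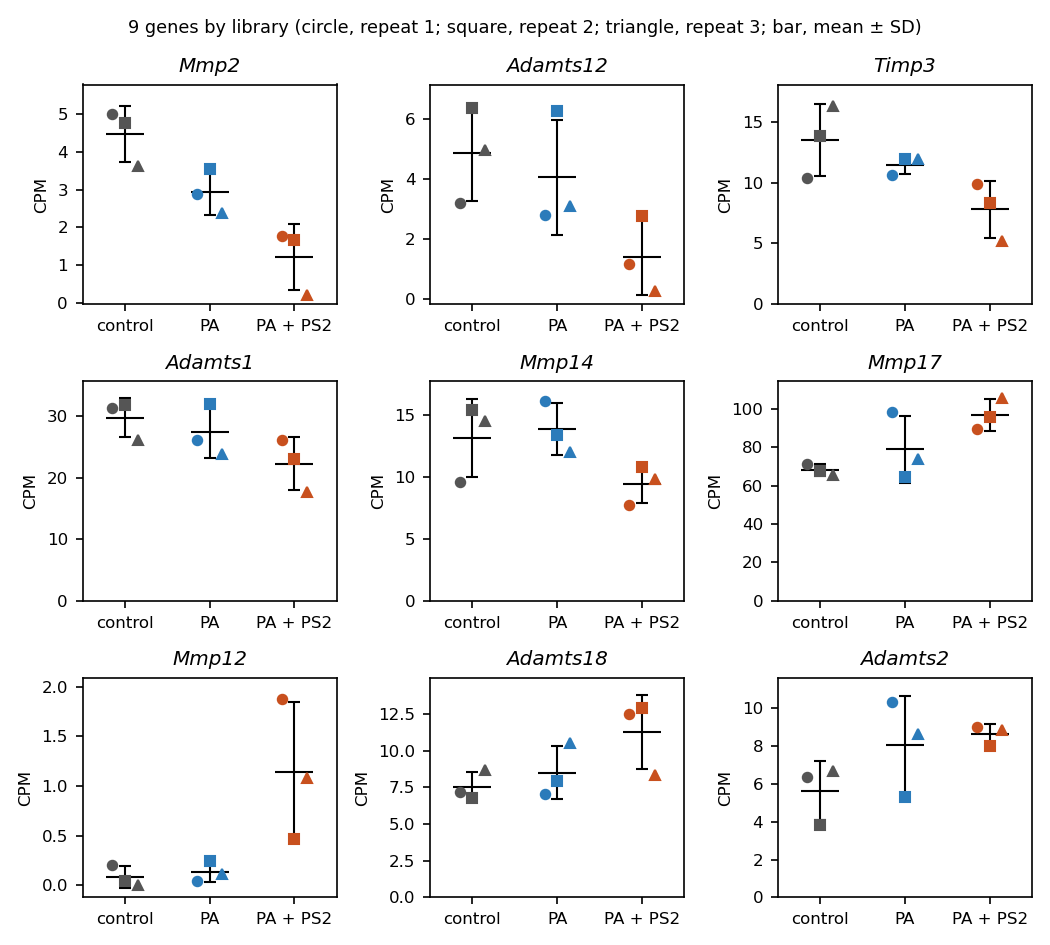
CPM (vertical axes) of the 9 members with an unadjusted p under 0.05 in PA + PS2 against control, in 1 panel per gene by group. Symbols are libraries (circle, square and triangle for repeats 1, 2 and 3) and bars give the mean with SD (n = 3); Mmp2, Adamts12 and Timp3 have their 3 lowest libraries in PA + PS2, and Mmp17 and Mmp12 lie above control there.

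Of the 18 tested Adamts genes, 14 had a log2 fold change below 0 in PA + PS2 against control, as had 7884 of the 15712 genes tested, and 0 passed in edgeR, with 4 at an unadjusted p under 0.05 in edgeR and in DESeq2. Adamts1, which cuts proteoglycans, was at 31.4, 31.8 and 26.1 CPM in controls, 26.2, 32.0 and 23.9 CPM in PA, and 26.1, 23.1 and 17.7 CPM in PA + PS2. Its PA + PS2 libraries did not exceed any control, and the log2 fold change was -0.42 ± 0.16 (adjusted p = 0.625 in edgeR). Adamts5, the main aggrecan-cutting enzyme of cartilage, was at 7.03, 5.91 and 6.86 CPM in controls, 5.40, 7.92 and 5.19 CPM in PA, and 5.72, 3.93 and 5.61 CPM in PA + PS2. All 3 of its PA + PS2 libraries lay under the lowest control, at -0.38 ± 0.22.

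Adamts4, which also cuts aggrecan and brevican, was at 2.63, 1.91 and 2.49 CPM in controls, 2.02, 2.05 and 1.88 CPM in PA, and 2.21, 1.5 and 0.915 CPM in PA + PS2. Adamts9, a versican-cutting protease, was at 1.36, 2.83 and 3.87 CPM in controls, 2.61, 3.52 and 3.23 CPM in PA, and 1.39, 1.93 and 1.54 CPM in PA + PS2. Both overlapped with control, at log2 fold changes of -0.61 ± 0.32 and -0.72 ± 0.35. Adamts15, related to Adamts1, was at 22.1, 20.7 and 17.6 CPM in controls, 17.7, 16.3 and 16.1 CPM in PA, and 18.8, 14.3 and 17.8 CPM in PA + PS2, again with overlap.

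Adamts8 was at 4.52, 5.70 and 5.85 CPM in controls, 5.26, 4.31 and 5.26 CPM in PA, and 4.67, 5.20 and 5.20 CPM in PA + PS2. Adamts20, known from pigment cell migration, was at 6.24, 6.96 and 6.58 CPM in controls, 6.12, 7.29 and 7.97 CPM in PA, and 7.70, 5.74 and 5.28 CPM in PA + PS2. Neither gene separated the groups.

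Adamts12 (chromosome 15, 11064790 to 11349231, ENSMUSG00000047497) and Adamts7 form a pair of related proteases that cut cartilage oligomeric matrix protein. Adamts12 was at 3.20, 6.35 and 4.97 CPM in controls, 2.79, 6.24 and 3.08 CPM in PA, and 1.15, 2.74 and 0.249 CPM in PA + PS2. The lowest library was PA + PS2 repeat 3, and all PA + PS2 libraries lay below all others. The log2 fold change against control was -1.79 ± 0.59 (adjusted p = 0.416 in edgeR), and it was -1.98 ± 0.41 with the repeat block (adjusted p = 0.0479 in edgeR). Without PA + PS2 repeat 3 it was -1.29, and without PA + PS2 repeat 2 it was -2.81. Adamts7 was at 41.6, 41.3 and 47.0 CPM in controls, 51.0, 39.5 and 40.1 CPM in PA, and 41.2, 42.9 and 37.9 CPM in PA + PS2, with overlapping groups and a log2 fold change of -0.09 ± 0.12; the difference between the 2 genes was not tested.

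Of the procollagen proteases Adamts2, Adamts3 and Adamts14, none passed in edgeR. Adamts2 was at 6.37, 3.83 and 6.68 CPM in controls, 10.3, 5.28 and 8.61 CPM in PA, and 8.99, 8.02 and 8.86 CPM in PA + PS2. Its PA + PS2 libraries all lay above the controls, at 0.62 ± 0.26 (adjusted p = 0.772 in edgeR). Adamts3 was at 40.4, 41.9 and 37.6 CPM in controls, 44.3, 37.5 and 44.5 CPM in PA, and 39.3, 43.0 and 40.8 CPM in PA + PS2, a spread within that of the controls and PA. Adamts14 was low, at 0.657, 0.956 and 0.645 CPM in controls, 1.08, 0.880 and 0.827 CPM in PA, and 0.625, 0.385 and 0.291 CPM in PA + PS2, with a log2 fold change of -0.80 ± 0.42 against control.

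Adamts10 and Adamts6, a pair tied to fibrillin fibres, showed no separation. Adamts10 was at 28, 23.1 and 17.4 CPM in controls, 24.3, 29.8 and 17.8 CPM in PA, and 28.4, 21.5 and 13.5 CPM in PA + PS2, with repeat 3 lowest in each group. Adamts6 was at 4.85, 5.04 and 6.45 CPM in controls, 4, 6.91 and 6.24 CPM in PA, and 5.96, 6.13 and 4.99 CPM in PA + PS2.

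In the pair Adamts17 and Adamts19, Adamts17 was at 15.6, 13.7 and 18.4 CPM in controls, 19.4, 9.93 and 16.1 CPM in PA, and 17.9, 14.6 and 14.4 CPM in PA + PS2. Adamts19, known from heart valve development, was at 1.27, 1.78 and 0.552 CPM in controls, 0.900, 1.09 and 1.43 CPM in PA, and 0.625, 1.19 and 0.624 CPM in PA + PS2. The groups of both overlapped.

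Of the pair Adamts16 and Adamts18, Adamts18 was at 7.19, 6.74 and 8.65 CPM in controls, 7.06, 7.92 and 10.5 CPM in PA, and 12.5, 12.9 and 8.36 CPM in PA + PS2. PA + PS2 repeats 1 and 2 were the highest of the 9 libraries and repeat 3 lay in the control range, and the log2 fold change was 0.58 ± 0.21 (adjusted p = 0.562 in edgeR). Adamts16 ranged from 0.135 to 1.39 CPM.

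The ADAMTS-like genes, which organise fibrillin fibres without cutting them, were low throughout. Adamtsl1 was at 5.63, 5.09 and 4.47 CPM in controls, 5.13, 5.53 and 4.17 CPM in PA, and 4.04, 5.67 and 4.12 CPM in PA + PS2. Adamtsl2, which binds fibrillin and a carrier of the growth factor TGF-beta, was at 4.68, 6.17 and 4.93 CPM in controls, 7.42, 7.45 and 6.39 CPM in PA, and 4.47, 5.59 and 5.86 CPM in PA + PS2. It was highest in the 3 PA libraries, while PA + PS2 and control overlapped.

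Adamtsl3 was at 1.36, 1.35 and 1.70 CPM in controls, 0.810, 0.754 and 0.977 CPM in PA, and 0.721, 1.12 and 1.79 CPM in PA + PS2. It was lowest in PA as a group, and the PA + PS2 libraries spread over the whole range. Adamtsl4, needed for the fibres that hold the lens, was at 0.329, 0.435 and 0.691 CPM in controls, 0.540, 0.880 and 0.338 CPM in PA, and 0.289, 0.231 and 0.0416 CPM in PA + PS2. Its 3 PA + PS2 libraries were the lowest of the 9, at a log2 fold change of -1.36 ± 0.65 against control. Adamtsl4 reached the level needed for the test only in control and PA libraries, so some difference was fixed by the filter.

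The inhibitors differed widely in level, with Timp2 far above the others. Timp2 (chromosome 11, 118301069 to 118355740, ENSMUSG00000017466) was at 328.6, 318.3 and 323.3 CPM in controls, 341.3, 302.7 and 330.7 CPM in PA, and 325.6, 329.8 and 363.0 CPM in PA + PS2. The groups overlapped, with a log2 fold change of 0.07 ± 0.09 against control. Timp3 (chromosome 10, 86300372 to 86349506, ENSMUSG00000020044), which stays bound to the matrix and also blocks ADAM and ADAMTS proteases, was at 10.4, 13.8 and 16.3 CPM in controls, 10.6, 11.9 and 11.9 CPM in PA, and 9.86, 8.33 and 5.24 CPM in PA + PS2. All PA + PS2 libraries lay below all others, at a log2 fold change of -0.79 ± 0.23 (adjusted p = 0.277, and 0.174 with the repeat block, both in edgeR). DESeq2 gave an adjusted p of 0.0594.

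3 of the 4 Timp genes lie inside synapsin genes, on the opposite strand: Timp1 in Syn1, Timp4 in Syn2 and Timp3 in Syn3. Timp3 shares 1733 exon bases with Syn3, 21.3% of its exons, Timp4 shares 90 with Syn2, and Timp1 shares none with Syn1. Syn3, a synaptic vesicle protein, was at 98.6, 58.6 and 68.0 CPM in controls, 89.0, 60.9 and 70.3 CPM in PA, and 82.6, 62.2 and 65.0 CPM in PA + PS2. Its log2 fold change in PA + PS2 against control was -0.10 ± 0.20. How far Syn3 reads enter the Timp3 counts was not tested.

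Timp4 was at 1.52, 1.13 and 1.47 CPM in controls, 0.810, 2.01 and 1.35 CPM in PA, and 0.721, 1.19 and 0.333 CPM in PA + PS2, with overlap and a log2 fold change of -0.86 ± 0.47. Timp1, the inhibitor that glia and fibroblasts make after injury, had too few reads to be tested: 4, 7 and 5 in controls, 7, 21 and 2 in PA, and 1, 1 and 0 in PA + PS2. Its PA + PS2 libraries had the fewest reads of the 9.

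**Figure D4:**
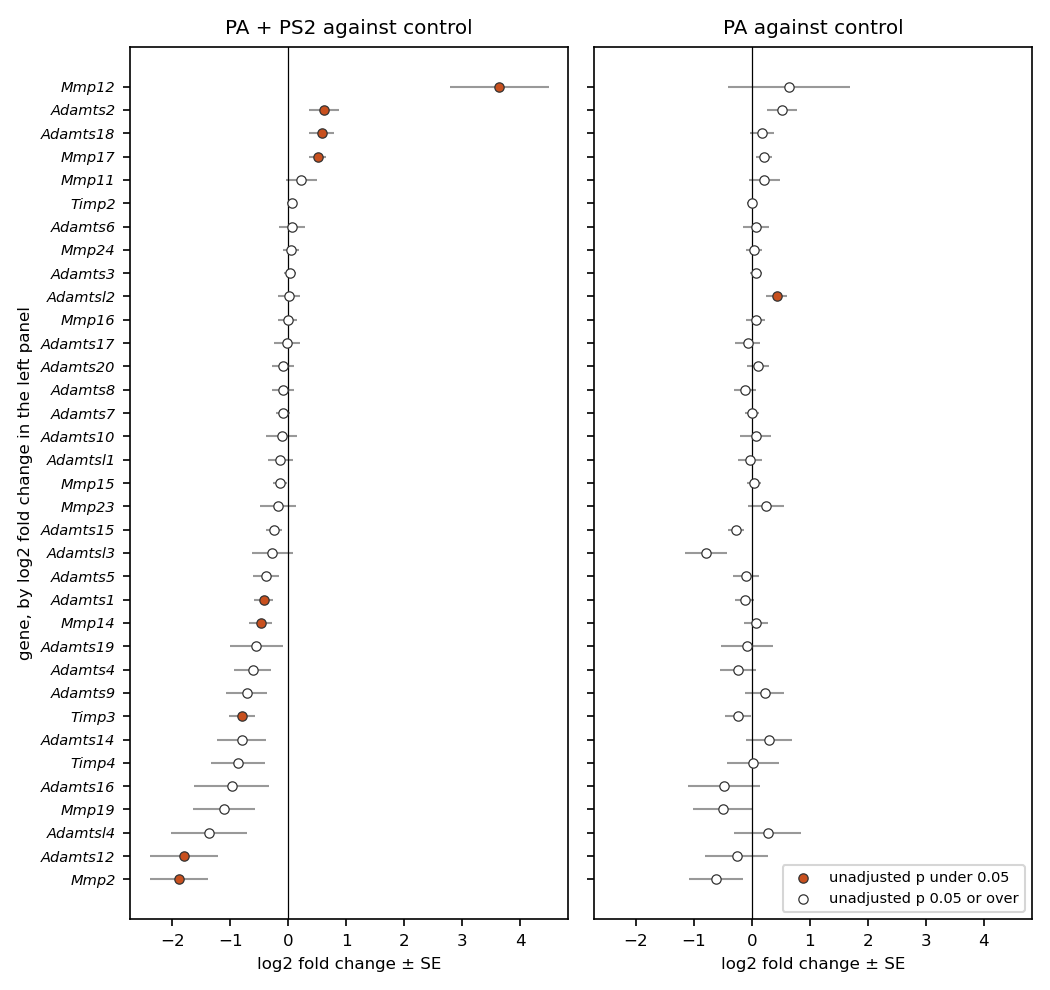
Log2 fold change of the 35 tested members (horizontal axes) in PA + PS2 against control (left) and PA against control (right), with bars of 1 standard error and genes ordered by the left panel; filled points have an unadjusted p under 0.05. In PA + PS2 against control Mmp12 lies at 3.63, Mmp2 at -1.88 and Adamts12 at -1.79, and the abundant Timp2, Mmp24 and Mmp16 lie near 0.

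Cell type markers were read in the same libraries. Neuronal markers summed to 7927.6 to 8579.3 CPM in controls, 7702.6 to 9062.4 in PA and 8350.2 to 9137 in PA + PS2, with 12 of 12 tested. Markers of fibroblasts, pericytes and meninges summed to 138.4, 198.9 and 161.9 CPM in controls, 107.0, 162.5 and 91.8 CPM in PA, and 58.9, 56.2 and 12.8 CPM in PA + PS2. The lowest library for this sum was PA + PS2 repeat 3, but not for every marker in it. Dcn and Ogn, for example, were lowest in PA repeat 1, at 1.39 and 0.72 CPM. PA + PS2 repeat 3 was also lowest for Mmp2, Adamts12, Timp3, Timp4 and Adamtsl4. The same held for further members such as Adamts1, Adamts4, Adamts7, Adamts10, Adamts14, Adamts20, Mmp19 and Mmp23. How many of all genes were lowest in this library was not counted, so these members have no background share. Fewer genes had a read there (22064) than in any other library. Mmp14 was lowest in PA + PS2 repeat 1 instead, and Timp2 and Mmp17 were highest in PA + PS2 repeat 3. Of 12 listed, 10 were tested, and 10 lay below 0 in PA + PS2 against control, with a median log2 fold change of -1.68; 0 passed in edgeR, 8 had an unadjusted p under 0.05, and 4 passed with the repeat block and 4 in DESeq2.

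The other marker lists were read in the same way. Endothelial markers summed to 5.87 to 9.02 CPM in controls and 2.08 to 4.66 CPM in PA + PS2. Of 7 listed only 3 were tested: 2 were lower at an unadjusted p under 0.05 in edgeR and 1 lay above 0. Of these 0 passed in edgeR and 1 in DESeq2. Astrocyte markers summed to 194.9 to 316.4 CPM in controls, 253.6 to 303.8 CPM in PA and 196.7 to 233.1 CPM in PA + PS2. Gjb6 was at 0 in every library. Of 9 tested, 2 were lower and 1 higher at an unadjusted p under 0.05 in edgeR, 0 passed there and 1 passed in DESeq2. Markers of dividing cells summed to 107.5 to 238.5 CPM in controls and 82.3 to 103.8 CPM in PA + PS2. Of the 8 markers of dividing cells 0 passed in edgeR, 7 were lower at an unadjusted p under 0.05, 5 passed as lower with the repeat block and 3 passed in DESeq2. Oligodendrocyte lineage markers summed to 57.9 to 80.2 CPM in controls and 50.9 to 74.4 CPM in PA + PS2, and of 8 tested 0 passed in edgeR, 5 had an unadjusted p under 0.05, and 4 passed in DESeq2. In that list 3 genes passed with the repeat block in edgeR: the lineage factors Olig1 at -2.42 ± 0.51 (adjusted p = 0.11, and 0.00687 with the block) and Olig2 at -1.97 ± 0.45 (0.144 and 0.00953), and the myelin gene Mag at 2.24 ± 0.55 (0.173 and 0.0479). Choroid plexus and ependymal markers summed to 11.5 to 45.5 CPM in controls and 21.2 to 37.1 CPM in PA + PS2, and of 4 tested 0 passed or had an unadjusted p under 0.05 in edgeR or DESeq2. The part of these cells in the lower Mmp2, Adamts12 and Timp3 levels was not tested. In RNA from whole cultures, fewer cells of a type and less RNA per cell cannot be told apart.

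With PA against control, 0% of all genes passed in edgeR at an adjusted p under 0.05, and no member did; DESeq2 also passed none. At an unadjusted p under 0.05 stood 1 member, Adamtsl2, higher in PA (0.554% of all genes), and 0 lower (0.668%). DESeq2 gave 1 higher (0.386% of its 31609 genes) and 0 lower (0.38%). With the repeat block in edgeR 2 were higher, Adamtsl2 and Adamts2 (1.05% of all genes), and 2 lower, Adamtsl3 and Adamts15 (1.69%). None of these passed the adjusted threshold. Adamtsl2 had a mean of 5.26 ± 0.799 CPM in controls and 7.09 ± 0.606 CPM in PA (SD, n = 3), at a log2 fold change of 0.43 ± 0.19 (adjusted p = 1 in edgeR). Its unadjusted p was over 0.05 when control repeat 1 or 3, PA repeat 1 or 2, or PA + PS2 repeat 2 was left out. The groups did not overlap for Adamtsl2, which was higher in PA (1.97% of all genes), and for Mmp2 and Adamtsl3, which were lower (2.07%). Mmp2 had a log2 fold change of -0.61 ± 0.46 and Adamtsl3 one of -0.79 ± 0.37. The median of the 35 members was 0.03, with 21 above 0, against -0.01 over all genes.

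With PA + PS2 against PA, again 0% of all genes passed in edgeR and no member did. At an unadjusted p under 0.05 stood 1 member higher, against 1.03% of all genes, and 8 lower, against 4.58%. DESeq2 put 8 members there, 1 higher and 7 lower, against 0.5% and 2.73% of its 31609 genes. In edgeR the counts were 1 higher and 3 lower without PA repeat 2 (1.73% and 2.69% of all genes). They were 2 and 3 without PA + PS2 repeat 3 (0.711% and 3.16%). Without PA + PS2 repeat 1 they were 2 and 5 (0.63% and 3.65%). Without PA repeat 1 they were 2 and 6 (1.77% and 5.81%), and without PA repeat 3 they were 2 and 8 (3.36% and 5.37%). The member that was higher was Mmp12, at 2.99 ± 0.79 (adjusted p = 0.339 in edgeR), a gene with enough reads for the test only through PA + PS2. The 8 lower ones were Mmp2 at -1.27 ± 0.50, Mmp14 at -0.55 ± 0.20, Adamts9 at -0.94 ± 0.35, Adamts12 at -1.53 ± 0.59, Adamts14 at -1.10 ± 0.41, Adamtsl2 at -0.41 ± 0.19, Adamtsl4 at -1.63 ± 0.64 and Timp3 at -0.55 ± 0.23. For these 9 genes the libraries of the groups did not overlap, against 3.32% of all genes higher and 6.32% lower. Among them Adamtsl4 reached the level needed for the test only in control and PA libraries. The median of the 35 members was -0.18, with 24 below 0, and that of all genes was 0.01. Of 9 tested astrocyte markers 8 lay below 0, at a median of -0.77, and 5 had an unadjusted p under 0.05 in edgeR. The medians were -1.26 for markers of fibroblasts, pericytes and meninges and 0.02 for neuronal markers. In edgeR 0 markers of these 3 lists passed. The part of such cells in the member values was not tested. This comparison shares its PA + PS2 libraries with the one against control, so the values of Mmp2, Adamts12, Timp3 and Mmp12 in both rest on the same libraries.

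The genes that switch on, hold back or feed these proteases were read from lists of the pathway, in PA + PS2 against control. Of 14 modulators of MMP activity, all tested, 1 passed: Thbs1, a thrombospondin that binds Mmp2 and Mmp9, fell from 98.8, 100.9 and 135.9 CPM in controls to 53.1, 58.4 and 46.8 CPM in PA + PS2. The PA libraries lay between, at 95.0, 79.2 and 84.3 CPM. Its log2 fold change was -1.08 ± 0.14 (adjusted p = 0.0338 in edgeR). Thbs1 no longer passed without control repeats 2 or 3 (adjusted p = 0.117 and 0.125 in edgeR) or without any of the PA + PS2 repeats 1 to 3 (adjusted p = 0.143, 0.0825 and 0.17), each left out in turn, at log2 fold changes of -1.16 to -0.92. Cd44, a hyaluronan receptor that docks Mmp9, was at -1.09 ± 0.34, and the testicans Spock3 and Spock1 at -0.38 ± 0.15 and 0.27 ± 0.12, without passing. The list had a median of -0.06.

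Of 16 serine proteases and inhibitors that act on the cascade, 11 were tested and 0 passed, with 3 at an unadjusted p under 0.05 in both edgeR and DESeq2 and 2 passing in DESeq2. A2m, a broad trap for proteases, was at -1.33 ± 0.32 (adjusted p = 0.166, and 0.0462 with the repeat block, both in edgeR). The protease Plat was at -0.44 ± 0.18 and the protease inhibitor Serpine2 at -0.30 ± 0.15. The list median was -0.13.

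Of 11 ADAM family genes, 10 were tested and 0 passed in edgeR or DESeq2, with 1 at an unadjusted p under 0.05 in each. Adam12, made by muscle and connective tissue cells, was at -0.95 ± 0.29 (adjusted p = 0.339, and 0.0488 with the repeat block, both in edgeR). Of 8 astacins, HtrA proteases and their helpers, 6 were tested and 0 passed in either tool, with 3 at an unadjusted p under 0.05 in each. These were the procollagen helper Pcolce at -1.68 ± 0.45, the serine protease Htra1 at -0.79 ± 0.24 and the astacin Tll2 at -1.52 ± 0.47. The list median was -0.59.

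Substrates and regulators were read in the same way. Of 8 lecticans and link proteins, 7 were tested and 0 passed in edgeR or DESeq2, with 3 at an unadjusted p under 0.05 in each: Hapln1 at -0.97 ± 0.39, Bcan at -0.85 ± 0.35 and Acan at -0.49 ± 0.20, the last being aggrecan. Of 13 AP-1, ETS and RUNX factors, families that switch on many Mmp genes, 12 were tested and 0 passed in either tool. At an unadjusted p under 0.05 stood 2 of them, Etv4 at -1.43 ± 0.58 and Etv5 at -0.63 ± 0.27. Of 11 cathepsins and cystatins, 10 were tested, 0 passed and 0 had an unadjusted p under 0.05 in edgeR or DESeq2. With PA against control and with PA + PS2 against PA, 0 genes of these 7 lists passed in edgeR without the repeat block.

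The other members with reads but too few for the test were Mmp9 with 59 reads over the 9 libraries, Adamts13 with 40, Adamtsl5 with 39, Mmp28 with 37, Mmp21 with 18, Mmp13 with 6 and Mmp25 with 2. Mmp9, gelatinase B, which is known for its part in synaptic plasticity, had 4, 5 and 4 reads in controls, 14, 7 and 5 in PA, and 5, 4 and 11 in PA + PS2. Its groups overlapped. Mmp28, which also overlaps a gene on the opposite strand, had 8, 6 and 5 reads in controls, 0, 6 and 7 in PA, and 1, 3 and 1 in PA + PS2. These counts were compared with no test.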

How the data were processed

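The authors deposited 1 file per library, holding the read count of each Ensembl gene as whole numbers, without normalization. The submitters' processing notes list STAR 2.7.5, cutadapt 4.2, DESeq2 1.14.1, HTSeq 2.0.2 and build mm10; their roles, the strand setting, the annotation and the filters are not given in the sources used here. The molecule label reads polyA RNA, while per the labels' protocols the kits were total RNA kits, which leaves the selection of RNA undetermined.

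Gene types, coordinates and exon lengths came from GENCODE M21 on the same build, which matched 54165 of 54232 identifiers. CPM were computed with TMM-scaled library sizes (trimmed mean of M values) in edgeR 4.0.16, under R 4.3.3. The main test was its 2-sided quasi-likelihood F test on all 9 libraries with group as the only term, filterByExpr (minimum count 10, minimum total 15), and Benjamini-Hochberg adjustment over 15712 genes at 0.05. Errors of log2 fold changes are standard errors, obtained by dividing the size of the log2 fold change by the square root of F. Alternatives were DESeq2 1.42.0, other scalings and filters, the repeat number as a block, fits of only 2 groups, and fits without single libraries or without repeat 1. The test was checked on simulated data.

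Libraries with the same repeat number deviated together: the correlations of their deviations from the group means across genes were 0.42, 0.37 and 0.28 for PA and control and 0.18, 0.22 and 0.13 for PA + PS2 and control, so in these comparisons the block is given where it changes a call. For PA + PS2 and PA they were 0.015, 0.29 and 0.3, and there the closing section alone gives the block. What a repeat number marks is not stated in the labels.

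Members with a mean of at least 1 CPM or an unadjusted p under 0.05 in any comparison are given by library, other tested members by range, and of each pathway list at most 4 genes with the smallest p in PA + PS2 against control; Lyz2, Cx3cr1, P2ry12, Tmem119, Olig1, Olig2 and Mag are exceptions, picked once their values had been seen. The members and lists were chosen with earlier results of these data known. Where a gene had 2 promoter windows, the one nearest its GENCODE start was used. A gene of the serine protease list is not reported here.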

Additional observations from a re-analysis of the deposited data

How the results depend on the processing

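No alternative changed the sign of a member with an unadjusted p under 0.05, over 17 alternatives and 17, 152 and 149 values for PA against control, PA + PS2 against control and PA + PS2 against PA, but the p was no longer under 0.05 in 8, 16 and 28 of these. These members were picked by that p in the same libraries, so their steady sign is no separate support. The other members given by library changed sign in 45 of 540, 19 of 405 and 39 of 408 values. Mmp2, Mmp17, Timp3 and Adamts12 stayed under an unadjusted p of 0.05 in every alternative of PA + PS2 against control in which they could be tested. Mmp12 did so too, but it had enough reads for the main test only through PA + PS2. Its staying there is therefore no separate support.

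Counts of calls depended on the setting, and the cause was not tested. With PA against control, 23 genes passed without a filter on low counts and 0 otherwise. With PA + PS2 against control, 7 genes passed; the number was 17 with size factors in place of TMM, 2 with total counts, 208 with DESeq2, 365 without a filter, 28 with only these 2 groups and 125 without repeat 1. It ran from 0 (without control repeat 2, control repeat 3 or PA + PS2 repeat 1) to 175 (without control repeat 1), with 18 without PA repeat 1, 2 without PA + PS2 repeat 2 and 1 without PA + PS2 repeat 3. Members passing numbered 2 with DESeq2 (Mmp2, Mmp12), 5 without a filter (those 2, Adamts12, Mmp17, Timp3), 1 without repeat 1 (Mmp17) and 0 without any single library. With PA + PS2 against PA, 121 genes passed with DESeq2, 330 without a filter and 3 without repeat 1, and from 0 to 37 without single libraries (37 without control repeat 1, 2 without PA + PS2 repeat 2). There, 3 members passed without a filter (Adamts12, Mmp12, Mmp2).

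With the repeat number as a block, 184 genes and 2 members (Mmp2, Adamts12) passed in PA + PS2 against control, and 57 genes and no member in PA + PS2 against PA; it changed no other call of a member. In PA + PS2 against PA it also made pathway genes pass, among them A2m, Bcan and Etv4 (adjusted p = 0.0354, 0.0354 and 0.0406 in edgeR). At under 1 CPM, about 20.8 reads in the shallowest library, differences between libraries rest on few reads.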
